A study of Mus musculus with 12 samples.

Results

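Messenger RNA of molecular chaperones, of their helper proteins and of the heat-shock factors was followed in neutrophil-lineage cells of mice from the first days of life to young adulthood. The group held 37 listed genes of the mouse cytosolic and mitochondrial chaperone systems, chosen by name and by the fact, known from these libraries, that many of them stood highest at 7 days of age. Of these, 36 were matched to an identifier among the 38887 in the count table, and 34 passed the expression filter among 15494 genes tested. Hspa14 was matched to no identifier and is not analysed here, and the small heat-shock genes Hspb8 (16 counts over all libraries) and Cryab (64 counts) were too rare to be tested. All 34 genes that passed also passed when the 7-day libraries were left out of the filter, so none entered only through the age at which the group was high.

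The study asked how neutrophils of newborn mice come to hold a suppressive activity for a short time. Cells from the spleen that carry Ly6G, a surface protein of neutrophils, were sequenced at 4 ages, and the labels name them PMN-MDSC, the polymorphonuclear form of myeloid-derived suppressor cells. The groups were mice of 2 days, 7 days, 14 days and 6 weeks with no treatment or altered allele named, and each had 3 libraries of polyadenylated RNA. The labels give no strain, sex, batch or number of mice per library, and leave unsaid whether each library is a different mouse, so a p-value here speaks only of library-to-library spread, which could be technical.

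Chaperones of the HSP70 and HSP90 families bind proteins that are not yet folded or have lost their fold, and release them in cycles driven by ATP. J-domain proteins bring clients to HSP70 and start its cycle, exchange factors of the HSP110 family end it, and further helpers pass clients on to HSP90, while the barrel-shaped chaperonins of the cytosol (CCT) and of mitochondria (Hspd1 with Hspe1) enclose a client whole. Heat, oxidants and other stresses that unfold proteins release the transcription factor HSF1 from chaperones, and HSF1 then binds repeats of the letters GAA and TTC in promoters, called heat-shock elements, of which those of Hspa1a and Hspa1b are textbook examples.

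Library totals ran from 34495767 to 38795913 counts, so depth was nearly even. Levels are in CPM, counts scaled to a common normalized library size, as the mean ± SD of 3 libraries where an SD is given, and levels of different genes were compared only per kilobase of the principal transcript. By normalization factor a pair of libraries stood apart from their partners, replicate 2 of 2 days and replicate 1 of 14 days, at 0.828 and 0.918 against 0.944 to 1.10 for the others. Other libraries also differed by noise between replicates (chi-square over degrees of freedom). It was 72.8 between replicates 1 and 2 of 6 weeks. For replicate 1 of 14 days against its partners it was 62.3 and 61.2, and for replicate 2 of 2 days 167 and 103. The neutrophil marker list, with Ly6g, S100a8 and S100a9 among 12 genes, summed to 70442 to 104956 CPM. None of its genes was at 0 at any age. Single markers shifted within that sum. In the libraries of 7 days, 7 of the 12 lay below all those of 14 days and none above. Against 6 weeks 7 lay below and 1 above, and against 2 days 4 lay below and 4 above. The part of these shifts in the chaperone levels was not tested. Y-linked transcripts of 4 genes summed to 1816 to 4010 counts in each library of 2 and 7 days and to 0 or 1 count in each library of 14 days and 6 weeks, so the sex of the mice cannot be told apart from age between these pairs of ages.

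At 7 days the chaperone group made up 4.21% ± 0.409 of all counts, against 0.298% ± 0.0261 at 2 days, 0.237% ± 0.0133 at 14 days and 0.245% ± 0.0189 at 6 weeks. Hspa1a and Hspa1b together supplied 1.93% to 2.55% of all counts in the 7-day libraries, and at most 0.0224% in any other. Because the genes were chosen with their 7-day level known, every contrast with 7 days is given as a description, with no test. In bulk RNA, fewer cells of a type and less RNA per cell cannot be told apart.

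All 3 libraries of 7 days lay above all 9 others for 28 of the 34 genes, and 14.7% of all genes tested did so. Against single ages the count was 29 for 2 days (27.4% of all genes), 31 for 14 days (31.7%) and 31 for 6 weeks (34.3%). The lowest 7-day library exceeded the highest other library by more than 2-fold for 17 of the 34 (1.25% of all genes) and by more than 8-fold for 6 (0.0968%). Those 6 were Hspa1a, Hspa1b, Hspa1l, Hsph1, Hsp90aa1 and Hspb1, which ranked 1, 2, 3, 4, 7 and 9 among all genes by that ratio. The exceptions were Dnaja2, Dnajb2, Dnajb6, Hspa2, Hspa9 and Hsf2, and Hspa2 was the only gene of the 34 whose 7-day libraries all lay below those of 14 days (32.2% of all genes) and below those of 6 weeks (35.6%). Scaled by library totals alone, the median of all genes at 7 days moved from -0.01 to 0.16 on the log2 scale against 6 weeks and from -0.01 to 0.13 against 2 days, so the 7-day differences are relative to that shift, and the count above all 9 libraries was then 29.

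**Figure D1:**
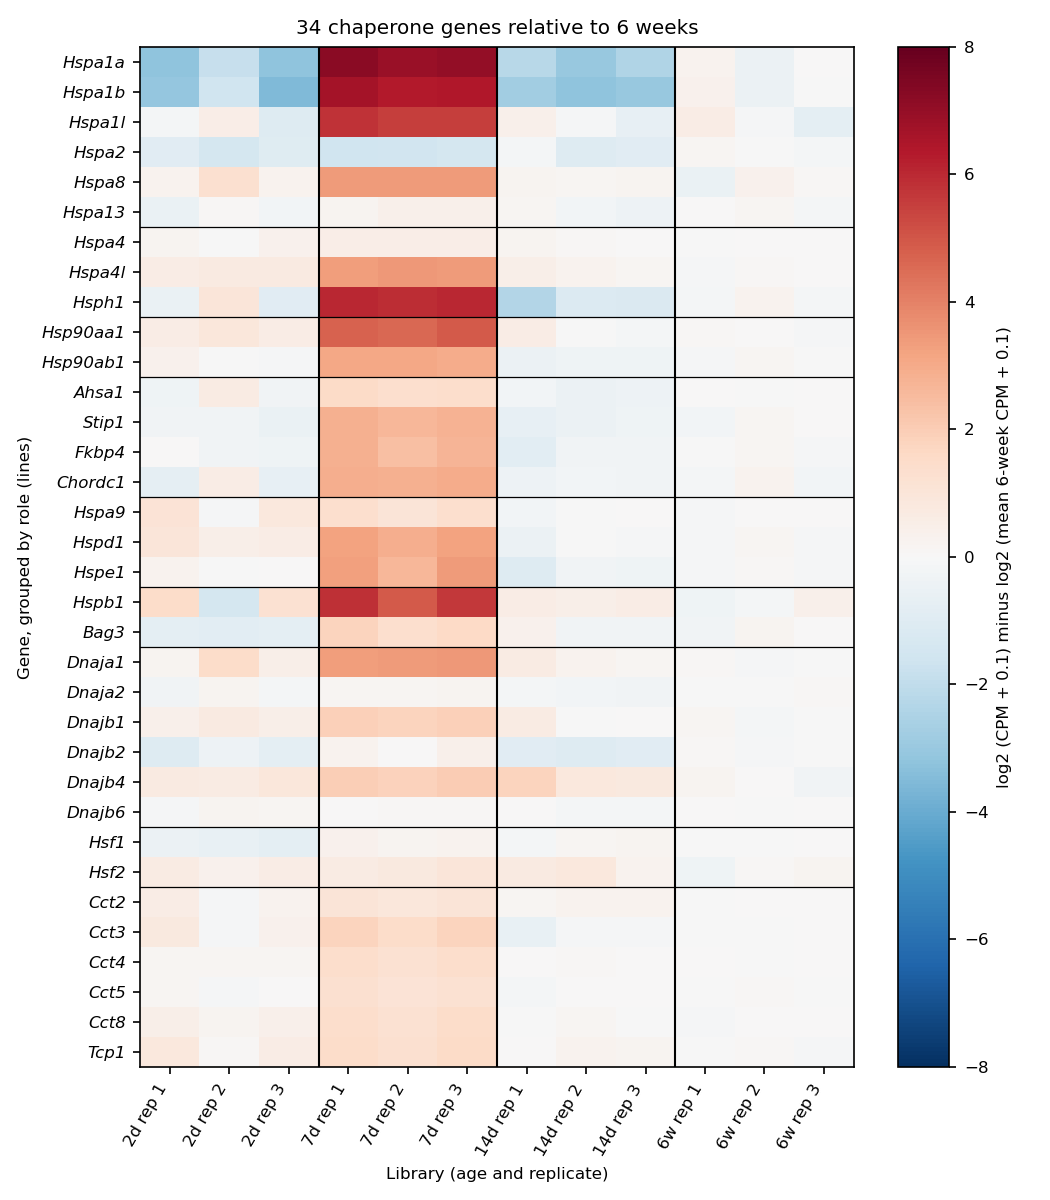
Level of the 34 tested chaperone genes in each of the 12 libraries, as log2 (CPM + 0.1) minus log2 of the mean 6-week CPM + 0.1. Columns are libraries by age and replicate, rows are genes with lines between role groups, red is above and blue below the 6-week mean. The 7-day columns are red for most rows, deepest for Hspa1a and Hspa1b, and the same 2 genes are blue at 2 and 14 days.

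Transcripts of other cells also moved at 7 days. The 12 erythroid markers, haemoglobin genes among them, summed to 6367, 3709 and 5788 CPM in 7-day replicates 1, 2 and 3 against 76.0 to 918 CPM in the other libraries. Of these markers 11 lay above all 9 other libraries, 8 of them by more than 2-fold, and none was at 0 at any age. Replicate 2 of 7 days, lowest in the erythroid sum, was the highest of the 3 for 3 of the 34 chaperone genes, where 40.5% of all genes were highest there. It was the lowest for 26 of the 34, and the share of all genes lowest there was not counted. Immediate early genes such as Fos went the other way, with 9 of 18 below all 9 other libraries (16.1% of all genes lay below) and sums of 5999.6 to 6595 CPM against 13296 to 34171 elsewhere. B cell marker sums were 1299 to 1431 CPM at 7 days and 473 to 1282 CPM elsewhere, with 4 of 8 markers above all 9 other libraries. Eosinophil sums were 133.8 to 189 CPM against 39.4 to 133.6 CPM, so they barely cleared the others, with 2 of 5 markers above all 9 and 1 below. All 11 mast cell markers lay below 2 days and 10 of 11 above 14 days and above 6 weeks, with sums of 152 to 181 CPM at 7 days. Of 13 monocyte markers 9 lay above 2 days and 9 above 14 days, while 12 lay below 6 weeks. The part of any of these in the 7-day chaperone levels was not tested.

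The cytosolic HSP70 genes showed the widest range. Hspa1a and Hspa1b are stress-inducible genes without introns, next to each other on chromosome 17 (GRCm38, chr17:34969190-34972156 and chr17:34956436-34959238, both on the minus strand), and their coding sequences are identical at 99.6% of aligned bases, with 8 mismatches, so the division of reads between them is uncertain. Hspa1a was at 9.45, 24.3 and 9.31 CPM at 2 days, 13373, 10674 and 11467 at 7 days, 19.1, 10.9 and 16.2 at 14 days and 109, 64.6 and 91.1 at 6 weeks. Hspa1b was at 11.6, 32.7 and 8.63 CPM at 2 days, 9846, 8045 and 8365 at 7 days, 14.5, 10.6 and 11.9 at 14 days and 128, 73.2 and 96.4 at 6 weeks. Both genes thus formed 3 tiers that did not overlap: the 7-day libraries on top, the 6-week libraries far below, and the libraries of 2 and 14 days lowest. For Hspa1a the 7-day mean was 825 times that of 2 days, 767 times that of 14 days and 134 times that of 6 weeks. Within the lower tier, replicate 2 of 2 days held more than its partners for both genes.

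Hspa1l, a close relative that runs the opposite way beside Hspa1a (chr17:34972703-34979285, plus strand, 83.3% identical in coding sequence), was at 26.7 ± 2.46 CPM at 7 days and 0.164 to 0.697 CPM in every other library. Since Hspa1l shares sequence with a far more abundant neighbour, reads assigned to it are uncertain. Hspa8, the constitutive HSP70 of the cytosol (chr9:40800984-40810087), was at 689, 1386 and 674 CPM at 2 days, 5978, 5897 and 5938 at 7 days, 645, 622 and 642 at 14 days and 384, 699 and 594 at 6 weeks. Its 7-day libraries were close together (SD 40.5 CPM) and their mean was 6.48 times that of the next highest age. Below them, the 6-week libraries overlapped with both other ages, and replicate 2 of 2 days was the highest. Hspa2, which is best known from the testis, had its lowest mean at 7 days, at 4.29, 3.00 and 4.08 CPM at 2 days, 2.67, 2.81 and 3.02 at 7 days, 7.27, 4.0 and 4.29 at 14 days and 9.25, 8.13 and 7.24 at 6 weeks. Hspa13, a membrane-bound relative, was at 25.5, 29.3 and 29.0 CPM at 7 days and 15.6 to 24.2 CPM elsewhere, so its 7-day libraries lay just above the others (lowest 7-day library 1.05 times the highest other).

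Per kilobase, Hspa8 was the most abundant of the 34 genes at 2 days, 14 days and 6 weeks, at 383, 266 and 233 CPM per kilobase, and Hsp90ab1 came second at all 3 ages. At 7 days Hspa1a (3989.9 CPM per kilobase) and Hspa1b (3122) stood above Hspa8 (2480.1). The level of Hspa1a and Hspa1b together, divided by that of Hspa8 in the same library, was 3.21, 2.63 and 2.76 at 7 days. That ratio was 0.0273 ± 0.00631 at 2 days, 0.0360 ± 0.00725 at 14 days and 0.314 ± 0.181 at 6 weeks. The inducible pair was thus less than the constitutive HSP70 transcript in every library of the other ages, least at 2 and 14 days, and more than it in all 3 libraries of 7 days.

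The promoters of the listed genes were searched for the heat-shock element. These genes were chosen by name as chaperone and heat-shock genes, some of which are known to carry it. A share above that of all genes was therefore likely from the start and says nothing of 7 days. The sequences are RefSeq's, build GRCm38.p6, printed 5′ to 3′ on the gene's strand in lower case, and capitals mark the letters that match the element. The element was written as 3 alternating units, GAANNTTCNNGAA or, on the other strand, TTCNNGAANNTTC, and overlapping matches were kept. The first sequence is the whole stretch of 250 bases before the Hspa1a start. The others are the surroundings of the match in Hspa1b, in the small heat-shock gene Hspb1, in the mitochondrial pair Hspd1 and Hspe1, in the HSP90 partner Chordc1, in the exchange factor Hsph1 and in the chaperonin subunit Cct2.
Hspa1a, chr17:34972157-34972406, minus strand: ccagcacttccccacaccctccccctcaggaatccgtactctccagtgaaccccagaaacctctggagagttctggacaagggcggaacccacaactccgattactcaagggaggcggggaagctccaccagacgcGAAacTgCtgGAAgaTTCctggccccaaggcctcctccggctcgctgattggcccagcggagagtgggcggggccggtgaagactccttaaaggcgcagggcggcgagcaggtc
Hspa1b, chr17:34959320-34959367, minus strand: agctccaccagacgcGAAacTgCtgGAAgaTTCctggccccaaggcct
Hspb1, chr5:135887787-135887829, plus strand: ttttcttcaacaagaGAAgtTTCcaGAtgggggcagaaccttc
Hspe1 and Hspd1, chr1:55088053-55088082, plus strand: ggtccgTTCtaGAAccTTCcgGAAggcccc
Chordc1, chr9:18292260-18292288, plus strand: ccgGAAcgTTCggGAAaaTTCctGAAgca
Hsph1, chr5:149636282-149636311, minus strand: aatgctGcAgaTTCtgGAAagTTCtcctca
Cct2, chr10:117063390-117063432, minus strand: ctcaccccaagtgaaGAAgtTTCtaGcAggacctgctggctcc

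Of the 36 genes, 28 had at least 1 window in the promoter table, a window being 300 bases that run from 250 before to 50 after a start site. All 9 fixed letters were found in 5 of the 28 (17.9%): Chordc1, Dnajb6, Hspd1, Hspe1 and Hsph1. Among all 27025 genes with a window the share was 0.662%. A looser search, added after the strict one had been seen, let 1 of the 9 letters differ and matched 14 of the 28 (50%) and 8.15% of all genes. Facing pairs of units alone, GAANNTTC or TTCNNGAA, were in 15 of the 28 (53.6%) and in 4587 of the 27025, the unit pair being part of the longer element. Hspa1a and Hspa1b each held 2 overlapping matches with 1 letter differing, at the same distance from the start, in stretches of 250 bases that are identical at 247 positions. The strict site upstream of Hspe1 is the same site that lies before an Hspd1 start on the other strand, and the annotation places it inside an Hspd1 exon. That single site is counted for both genes, and the near-identical stretches of Hspa1a and Hspa1b are likewise counted separately.

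A match in the window and a high 7-day level did not always go together. Dnajb6, with a strict match, was at 118, 127 and 127 CPM at 7 days and within the range of the other libraries. Dnajb1, Stip1, Hspa4l and Hspa1l had no match in their windows, even with 1 letter differing, and all 4 lay above the other 9 libraries at 7 days. The reads assigned to Hspa1l are uncertain, as stated above. Bag3, Cct3, Cct8, Hspa4 and Tcp1 also had no match and lay above the other 9 libraries, by less. Their lowest 7-day library was 1.12 (Hspa4) to 1.99 (Bag3) times the highest other library. A match is a description of letters and not of a bound factor, and no match says only that these letters are not in that window. Hspa8, Hsp90aa1, Hsp90ab1, Hspa9, Hspa13, Hsf1, Cct4 and Cryab are named only, having no window in the table.

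**Figure D2:**
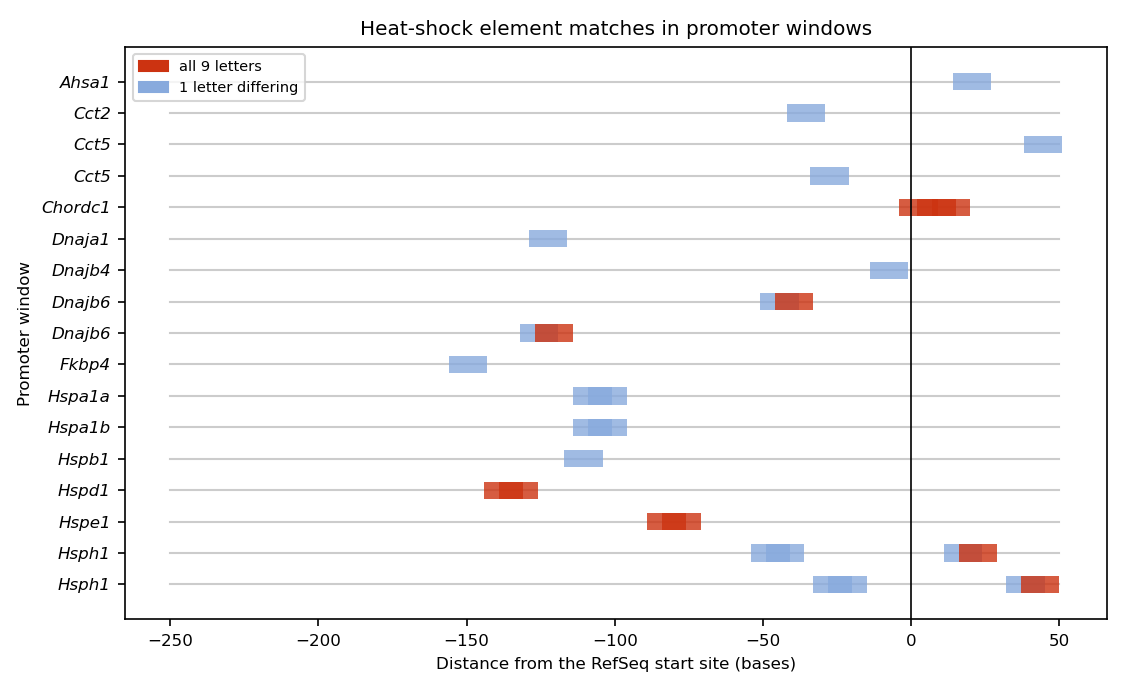
Position of heat-shock element matches in 17 promoter windows of 14 chaperone genes, in bases from the RefSeq start site (vertical line at 0). Red bars match all 9 letters, blue bars differ at 1 letter, and overlapping bars appear darker. Strict matches lie in the windows of Chordc1, Dnajb6, Hspd1, Hspe1 and Hsph1, while those of Hspa1a and Hspa1b differ at 1 letter and sit at the same distance.

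Exchange factors of the HSP110 family, which let HSP70 release its client, differed in how far 7 days stood out. Hsph1 (chr5:149614287-149636376), the heat-inducible member, was at 10.8, 31.2 and 8.16 CPM at 2 days, 1024, 932 and 1030.1 at 7 days, 2.95, 7.21 and 6.82 at 14 days and 14.2, 18.9 and 13.8 at 6 weeks. Among all genes tested it ranked 4 by the ratio of 7-day to other libraries, the lowest 7-day library being 29.9 times the highest of the rest. Its spread at the other ages was wide, from 2.95 CPM in replicate 1 of 14 days to 31.2 CPM in replicate 2 of 2 days. Hspa4l stood at 263 ± 12.1 CPM at 7 days and between 23.2 and 41.9 CPM elsewhere. Hspa4, the constitutive member, was at 97.0, 82.1 and 106 CPM at 2 days, 120.3, 118 and 122 at 7 days, 98.4, 90.1 and 84.4 at 14 days and 80.3, 83.2 and 85.1 at 6 weeks. Its 7-day libraries lay above the others by little, with a mean 1.26 times that of the next highest age.

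The cytosolic HSP90 genes were both high at 7 days, and not to the same degree. Hsp90aa1 (chr12:110690605-110702728), the inducible form, was at 148, 184 and 145 CPM at 2 days, 2581, 2370.0 and 2862 at 7 days, 145, 96.4 and 88.9 at 14 days and 103, 98.2 and 90.5 at 6 weeks. Hsp90ab1 (chr17:45567775-45573271), the constitutive form, was at 692, 536 and 512 CPM at 2 days, 4597, 4537 and 4315 at 7 days, 390.0, 423 and 422 at 14 days and 508, 589 and 521 at 6 weeks. The 7-day mean was 16.4 times the next highest age for Hsp90aa1 and 7.73 times for Hsp90ab1. Their coding sequences are 76.3% identical. Per kilobase, Hsp90aa1 relative to Hsp90ab1 was 0.431, 0.401 and 0.509 in the 7-day libraries, 0.164, 0.263 and 0.217 at 2 days, 0.286, 0.175 and 0.162 at 14 days and 0.156, 0.128 and 0.133 at 6 weeks. Hsp90ab1 was the more abundant in every library, and the balance leaned most towards Hsp90aa1 at 7 days.

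The list held 4 helpers of HSP90. Stip1, which holds HSP70 and HSP90 together while a client is handed over, was at 49.4, 49.9 and 43.1 CPM at 2 days, 439, 392 and 417 at 7 days, 38.1, 44.1 and 47.4 at 14 days and 52.9, 67.8 and 63.1 at 6 weeks. Chordc1, an HSP90 partner, was at 13.03, 32.5 and 13.7 CPM at 2 days, 165, 159.9 and 172 at 7 days, 16.4, 18.5 and 18.4 at 14 days and 19.95, 26.9 and 19.0 at 6 weeks. In both genes the 7-day libraries stood clear of the rest, 5.79 and 4.92 times the highest other library at the least. Fkbp4, a prolyl isomerase known from steroid receptor complexes, was at 258, 190.2 and 236 CPM at 7 days and 20.5 to 39.8 CPM elsewhere. Ahsa1, which speeds the ATPase of HSP90, differed less, with 217, 193 and 199.9 CPM at 7 days and 54.4 to 119.6 CPM elsewhere, the top of that range being replicate 2 of 2 days.

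Among the mitochondrial chaperones, the chaperonin Hspd1 and its lid Hspe1 stood high at 7 days and Hspa9 less so. The Hspd1 and Hspe1 genes lie head to head on chromosome 1 and overlap (chr1:55077835-55088243, minus strand, and chr1:55088132-55091307, plus strand), and with no strand setting stated, reads of the overlap cannot be divided. Hspd1 was at 68.5, 49.2 and 54.0 CPM at 2 days, 328, 272 and 336 at 7 days, 25.5, 35.0 and 33.5 at 14 days and 33.7, 39.8 and 33.3 at 6 weeks. Hspe1 was at 24.4, 19.8 and 20.2 CPM at 2 days, 192, 126 and 212 at 7 days, 9.86, 16.0 and 15.8 at 14 days and 19.0, 21.7 and 18.9 at 6 weeks. At 7 days replicate 2 was the lowest for both. Per kilobase, Hspe1 relative to Hspd1 was 1.18 ± 0.0728 at 2 days, 1.75 ± 0.270 at 7 days, 1.37 ± 0.140 at 14 days and 1.75 ± 0.0397 at 6 weeks. Hspa9, the HSP70 of mitochondria, was at 80.7, 65.3 and 81.4 CPM at 7 days, and replicate 1 of 2 days, at 68.8 CPM, reached into that range.

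Small heat-shock proteins hold unfolded chains until HSP70 can act on them, and Bag3 links them to HSP70. Hspb1 was at 0.639, 0 and 0.520 CPM at 2 days, 15.3, 7.73 and 13.1 at 7 days, 0.292, 0.272 and 0.297 at 14 days and 0.111, 0.132 and 0.246 at 6 weeks. Replicate 2 of 2 days had 0 counts, which allows up to 0.0988 CPM (3 counts of that library, counting error only). Bag3 was at 4.11, 3.95 and 4.14 CPM at 2 days, 24.9, 18.3 and 21.3 at 7 days, 9.16, 5.82 and 5.66 at 14 days and 5.82, 8.13 and 7.19 at 6 weeks. Its 7-day libraries were 1.99 times the highest other library at the least. Hspb8 and Cryab stayed at or under 0.0980 and 0.328 CPM in any library, so in this group Hspb1 alone among small heat-shock genes was measured above 1 CPM at any age.

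The J-domain genes, which start the ATP cycle of HSP70, were divided. Dnaja1 was at 109, 251 and 126 CPM at 2 days, 937, 987 and 999 at 7 days, 142, 114 and 101 at 14 days and 99.3, 85.6 and 90.9 at 6 weeks. Dnajb1, the partner of HSP70 in taking aggregates apart, was at 104, 129.8 and 107 CPM at 2 days, 296, 272 and 286 at 7 days, 121, 77.2 and 79.1 at 14 days and 87.0, 68.6 and 77.0 at 6 weeks. Dnajb4 was at 8.17, 7.54 and 9.26 CPM at 2 days, 18.9, 17.7 and 20.04 at 7 days, 16.8, 8.65 and 8.28 at 14 days and 5.55, 5.01 and 3.96 at 6 weeks. These 3 genes lay above the other 9 libraries at 7 days, Dnaja1 by the most (3.73 times the highest other library at the least) and Dnajb4 by the least (1.06 times). Dnaja2, Dnajb2 and Dnajb6 overlapped with other ages: their 7-day means were 90.7 ± 1.86, 5.53 ± 0.763 and 124 ± 5.16 CPM, and the highest means elsewhere were 80.2 ± 4.51 CPM at 6 weeks, 4.64 ± 0.282 CPM at 6 weeks and 127 ± 12.99 CPM at 2 days.

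Transcripts of the heat-shock factors lay in narrow ranges. Hsf1 was at 14.2, 12.7 and 11.2 CPM at 2 days, 24.9, 22.5 and 24.0 at 7 days, 17.4, 22.2 and 22.5 at 14 days and 19.5, 19.5 and 19.9 at 6 weeks. Hsf2 was at 2.71, 2.14 and 2.52 CPM at 2 days, 2.70, 2.96 and 3.34 at 7 days, 2.74, 3.10 and 2.08 at 14 days and 1.28, 1.80 and 1.91 at 6 weeks. For Hsf1 the 7-day libraries lay above the others by almost nothing (1.00 times the highest other library at the least), and the 2-day libraries were the lowest. Hsf2 overlapped between 2, 7 and 14 days and lay lowest in the 6-week libraries, a difference that did not pass the test at 2 days against 6 weeks (log2 fold change 0.56, adjusted p = 0.0690) or at 14 days (0.66, adjusted p = 0.0617). Without replicate 2 of 2 days Hsf2 passed in both, at 0.65 and 0.67, and without replicate 3 of 14 days it passed in the second. Per kilobase Hsf2 was a small fraction of Hsf1 at every age, 0.156 ± 0.0227 at 2 days, 0.101 ± 0.0129 at 7 days, 0.104 ± 0.0269 at 14 days and 0.0678 ± 0.0133 at 6 weeks.

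All 6 listed subunits of the cytosolic chaperonin CCT, which folds actin and tubulin, lay above the other 9 libraries at 7 days. Tcp1 was at 84.0, 51.2 and 73.4 CPM at 2 days, 130.2, 115 and 135 at 7 days, 49.0, 58.5 and 56.3 at 14 days and 46.5, 50.9 and 45.5 at 6 weeks. Cct2 was at 97.7, 61.2 and 77.3 CPM at 2 days, 132, 122 and 129 at 7 days, 71.9, 76.9 and 76.9 at 14 days and 62.5, 66.1 and 64.3 at 6 weeks. Their 7-day means were 1.62 (Cct2) to 2.45 (Cct3) times those of the next highest age, smaller ratios than those of both HSP90 genes and of Hspa1a, Hspa1b, Hspa1l and Hspa8. Cct3, Cct4, Cct5 and Cct8 were at 110.1, 146, 176 and 162 CPM at 7 days. Of the summed level of the 6 subunits per kilobase, Cct5 held 22.0% to 25.6% at each age, Cct3 8.73% at 14 days and 14.1% at 7 days, and Cct2 16.6% at 7 days and 23.0% at 14 days.

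**Figure D3:**
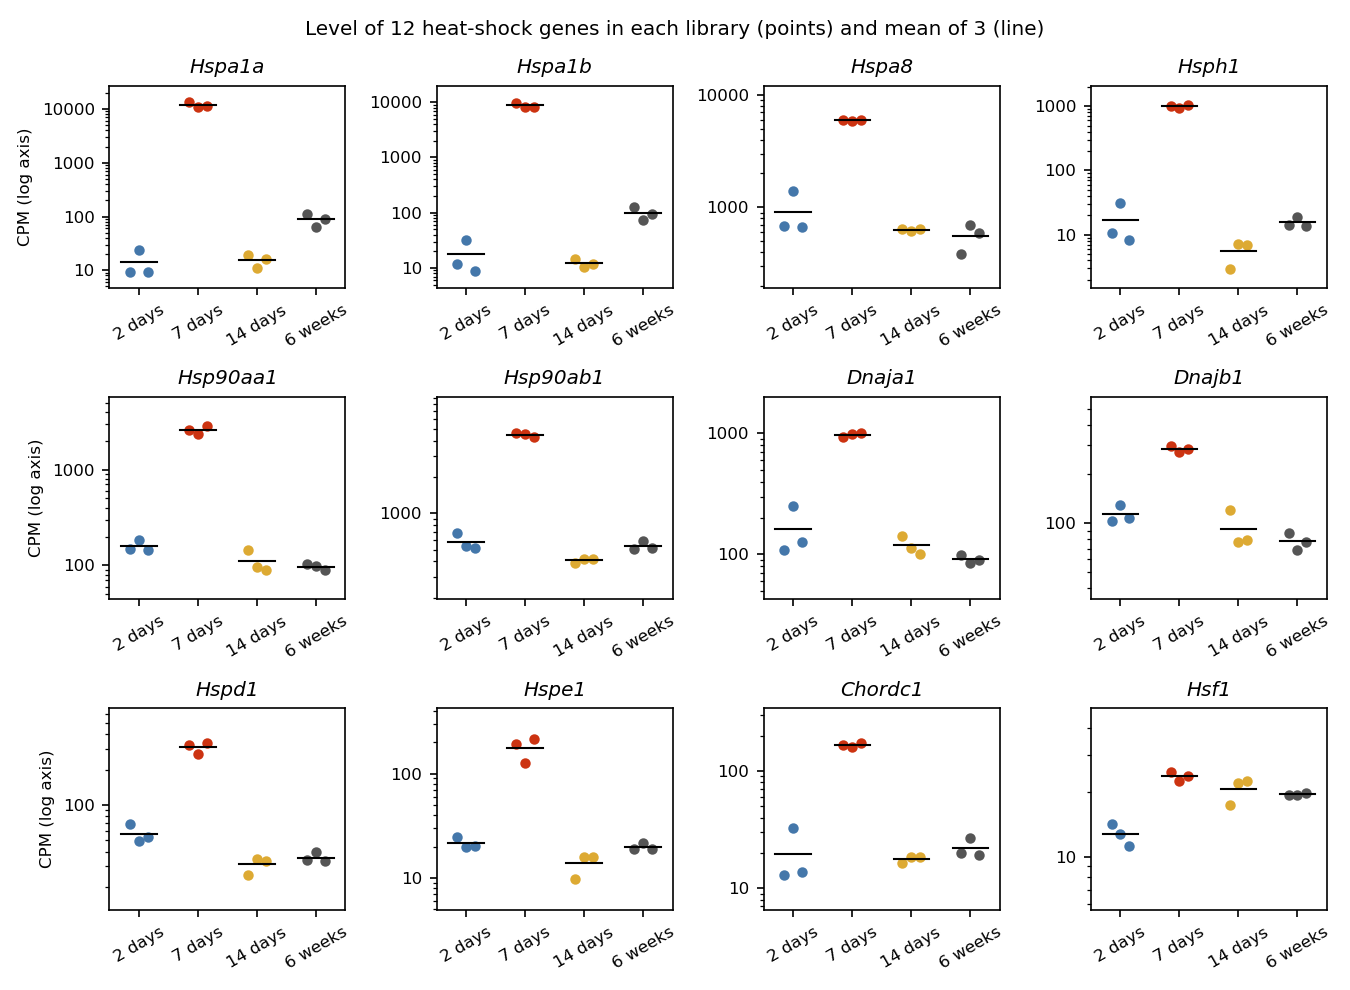
Level of 12 heat-shock genes in each library, in CPM on log axes, with a point per library and a line at the mean of 3. In every panel the 7-day points are the highest. For Hspa1a and Hspa1b they lie at 8045 to 13373 CPM, above 6-week points between 64.6 and 128 CPM and 2-day and 14-day points at or under 32.7 CPM, whereas for Hsf1 they barely clear the 14-day points.

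The choice of genes rested on their names and their 7-day level, but earlier results of these data were known when it was made. The 3 other pairs of ages leave 7 days out. They were tested with edgeR's quasi-likelihood test, adjusted by Benjamini-Hochberg over all 15494 genes. The p-values are thus not fully independent of the choice. The first comparison asked how 2-day cells differ from those of 6 weeks. Of the 34 genes, 9 were higher at 2 days, 7 were lower and 18 did not pass, where 20.7% of all genes were higher and 19.7% lower, and 40.4% passed in either direction, so the share called was close to the background. The median log2 fold change was 0.11 for the group and 0.04 for all genes. The lower genes were led by the inducible HSP70 pair: Hspa1a fell by 2.63 on the log2 scale (SE 0.37, edgeR adjusted p = 1.50e-04) and Hspa1b by 2.50 (SE 0.41, adjusted p = 4.81e-04), with all 3 libraries of 2 days below those of 6 weeks in both (47.2% of all genes did not overlap between these ages). Without replicate 2 of 2 days, the highest of its age for both genes, the log2 fold changes were -3.23 for Hspa1a and -3.29 for Hspa1b. Hspa2 had a log2 fold change of -1.11 (SE 0.23, adjusted p = 0.00241), Bag3 of -0.79 (SE 0.20, adjusted p = 0.00858), Dnajb2 of -0.73 (SE 0.19, adjusted p = 0.00923) and Hsf1 of -0.63 (SE 0.13, adjusted p = 0.00192). Stip1 fell least, by 0.37 (SE 0.12, adjusted p = 0.0315).

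The higher genes at 2 days moved by less than 1 on the log2 scale, and 3 of them were J-domain genes, the role that also holds the lower Dnajb2. The exchange factor Hspa4l had a log2 fold change of 0.70 (SE 0.11, adjusted p = 2.84e-04), the inducible Hsp90aa1 of 0.71 (SE 0.18, adjusted p = 0.00856) and the mitochondrial Hspd1 of 0.68 (SE 0.16, adjusted p = 0.00447). Further rises were those of Dnaja1 (0.82), Dnajb4 (0.78), Hspa9 (0.71), Dnajb1 (0.55), Tcp1 (0.55) and Cct8 (0.37). Of the 16 calls, 9 held in all 20 alternative fits: those of Hspa1a, Hspa1b, Hspa2, Hspa4l, Hsp90aa1, Hspd1, Bag3, Dnajb2 and Hsf1. The other 7 ended without single libraries, with the log2 fold change and adjusted p then as follows. Stip1 ended without 2-day replicate 3 (-0.33, adjusted p = 0.101), 6-week replicate 2 (-0.29, adjusted p = 0.122) and 6-week replicate 3 (-0.35, adjusted p = 0.0940), where p ran from 0.0116 to 0.122 over its alternatives. Dnaja1 ended without 6-week replicate 2 (0.77, adjusted p = 0.0748) and 6-week replicate 3 (0.81, adjusted p = 0.0663), its p running from 0.00419 to 0.0748. Dnajb1 ended without 6-week replicate 2 (0.47, adjusted p = 0.0875) and 6-week replicate 3 (0.54, adjusted p = 0.0646), with a range of 0.00278 to 0.0875. Dnajb4 ended without 2-day replicate 3 (0.68, adjusted p = 0.0899), 6-week replicate 2 (0.81, adjusted p = 0.0537) and 6-week replicate 3 (0.66, adjusted p = 0.0936), with a range of 2.97e-04 to 0.0936. These 3 are all J-domain genes, and the remaining ones fold cytosolic and mitochondrial clients. Tcp1 ended without 2-day replicate 1 (0.37, adjusted p = 0.0881), 2-day replicate 3 (0.49, adjusted p = 0.0727), 6-week replicate 1 (0.52, adjusted p = 0.0504) and 6-week replicate 3 (0.51, adjusted p = 0.0577), with a range of 7.02e-05 to 0.0881. Hspa9 ended without 2-day replicate 1 (0.45, adjusted p = 0.132), 2-day replicate 3 (0.61, adjusted p = 0.104), 6-week replicate 1 (0.67, adjusted p = 0.0734), 6-week replicate 2 (0.71, adjusted p = 0.0598) and 6-week replicate 3 (0.73, adjusted p = 0.0560), range 1.84e-05 to 0.132. Cct8 ended without 2-day replicate 1 (0.29, adjusted p = 0.0760), 2-day replicate 3 (0.33, adjusted p = 0.0750) and 6-week replicate 1 (0.33, adjusted p = 0.0652), range 0.00239 to 0.0760. Without replicate 2 of 2 days 14 genes were higher, where 8170 of all 15967 genes in that fit passed in either direction. Without replicate 3 of 6 weeks 4 were higher, where 4929 of 15948 passed. In the main fit 6263 of 15494 passed. Replicate 2 of 2 days also set the sign for Ahsa1, whose log2 fold change of 0.09 (not past the test) became -0.31 (adjusted p = 0.0196) without it. The sign of Hsph1 turned too, to -0.72 without that library, and did not pass (adjusted p = 0.0540).

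The second comparison set 14 days against 6 weeks. Of the 34 genes 1 was higher and 5 were lower, where 9.68% of all genes were higher, 9.26% lower and 18.9% either, and 28 did not pass. The median was -0.06 for the group and 0.00 for all genes. Hspa1a and Hspa1b had the most negative fold changes, at -2.52 (SE 0.37, adjusted p = 7.16e-04) and -3.01 (SE 0.42, adjusted p = 5.62e-04) on the log2 scale, with no overlap between the libraries of both ages (44.1% of all genes had none). Hsph1 was at -1.46 (SE 0.44, adjusted p = 0.0367), Dnajb2 at -0.96 (SE 0.19, adjusted p = 0.00467) and Stip1 at -0.50 (SE 0.12, adjusted p = 0.0146). The single rise was that of Dnajb4, at 1.21 (SE 0.25, adjusted p = 0.00508). Its 14-day libraries spread widely, with a coefficient of variation of 42.6% and replicate 1 the highest. Over the alternative fits its log2 fold change ran from 0.81 to 1.39. Calls for Hspa1a, Hspa1b, Dnajb2 and Dnajb4 held in all 20 alternatives. That of Hsph1 ended without 7-day replicate 2 (-1.46, adjusted p = 0.0529), 14-day replicate 1 (-1.15, adjusted p = 0.112), 14-day replicate 2 (-1.67, adjusted p = 0.0546), 14-day replicate 3 (-1.62, adjusted p = 0.0653), 6-week replicate 1 (-1.53, adjusted p = 0.0741), 6-week replicate 2 (-1.30, adjusted p = 0.104) and 6-week replicate 3 (-1.54, adjusted p = 0.0698), over a range of 3.46e-04 to 0.112. The call for Stip1 ended without 14-day replicate 1 (-0.42, adjusted p = 0.0539), 6-week replicate 2 (-0.43, adjusted p = 0.0612) and 6-week replicate 3 (-0.48, adjusted p = 0.0597), over a range of 5.88e-04 to 0.0783. Replicate 2 of 2 days is of neither age compared and takes part through the shared filter, scaling and estimate of the spread. Without it 4 genes were higher and 8 lower. Of all 15967 genes in that fit 4685 passed in either direction, against 2934 of 15494 in the main fit. Without replicate 2 or replicate 3 of 6 weeks 3 were lower, where 2220 of 15950 and 1677 of 15948 genes passed. The count of higher genes was 2 without replicate 1 of 2 days and without replicate 3 of 14 days, where 3443 of 15812 and 2111 of 15934 genes passed.

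The third comparison set 14 days against 2 days. Of the 34 genes 2 were higher and 8 lower, where 12.8% of all genes were higher, 12.3% lower and 25.1% either, and 24 did not pass. The median was -0.23 for the group and -0.03 for all genes. All 3 mitochondrial chaperones were lower at 14 days: Hspd1 at -0.87 (SE 0.16, adjusted p = 0.00173), Hspa9 at -0.77 (SE 0.22, adjusted p = 0.0241) and Hspe1 at -0.63 (SE 0.21, adjusted p = 0.0437). The other lower genes were Hsph1 at -1.55 (SE 0.44, adjusted p = 0.0221), Hsp90ab1 at -0.50 (SE 0.14, adjusted p = 0.0210), Cct3 at -0.64 (SE 0.20, adjusted p = 0.0323), Hspa4l at -0.38 (SE 0.11, adjusted p = 0.0192) and Cct8 at -0.32 (SE 0.11, adjusted p = 0.0435). Bag3 and Hsf1 were higher, at 0.76 (SE 0.21, adjusted p = 0.0172) and 0.70 (SE 0.13, adjusted p = 0.00155). Hspa1a and Hspa1b did not pass, at 0.11 (SE 0.35, adjusted p = 0.858) and -0.51 (SE 0.40, adjusted p = 0.386), and their libraries overlapped, where 33.4% of all genes did not overlap. Without replicate 2 of 2 days Hspa1a was at 0.72 and passed the test, while Hspa1b was at 0.29 and did not.

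Of these 10 calls, only those of Hspd1 and Hsf1 held in all 20 alternatives. Hsph1 ended without 2-day replicate 2 (-0.73, adjusted p = 0.0676) and 14-day replicate 1 (-1.24, adjusted p = 0.0673), over a range of adjusted p of 0.00150 to 0.106. Bag3 ended without 14-day replicate 1 (0.50, adjusted p = 0.0564), range 0.00574 to 0.0887. Hsp90ab1 ended without 2-day replicate 1 (-0.32, adjusted p = 0.0762), 14-day replicate 1 (-0.46, adjusted p = 0.0528), 14-day replicate 2 (-0.49, adjusted p = 0.0592) and 14-day replicate 3 (-0.51, adjusted p = 0.0611), range 5.15e-04 to 0.0980. The next are an exchange factor and the HSP70 of mitochondria. For Hspa4l the call ended without 2-day replicate 3 (-0.33, adjusted p = 0.0799), 14-day replicate 2 (-0.34, adjusted p = 0.0792) and 14-day replicate 3 (-0.31, adjusted p = 0.0999), range 0.00168 to 0.106. For Hspa9 it ended without 2-day replicate 1 (-0.51, adjusted p = 0.115), 2-day replicate 3 (-0.67, adjusted p = 0.109), 14-day replicate 1 (-0.70, adjusted p = 0.0675), 14-day replicate 2 (-0.78, adjusted p = 0.0731) and 14-day replicate 3 (-0.80, adjusted p = 0.0579), range 7.19e-05 to 0.115. Hspe1 and Cct8 each passed, among fits lacking 1 library, only without replicate 2 of 2 days or replicate 2 of 7 days, and without any of the 10 others Hspe1 had log2 values -0.44 to -0.73, adjusted p from 0.0561 to 0.142, and Cct8 log2 values -0.24 to -0.36, adjusted p from 0.0596 to 0.168. Cct3 ended without replicates 1 and 3 of 2 days, replicates 1 and 3 of 7 days and each replicate of 14 days (log2 values -0.36 to -0.71, adjusted p from 0.0566 to 0.162). The count of lower genes was 2 without replicate 2 or 3 of 14 days, 3 without replicate 1 or 3 of 2 days, 4 without replicate 1 of 14 days and 5 without replicate 1 or 3 of 7 days. The count of higher genes was 4 without replicate 2 of 2 days and 1 without replicate 1 of 14 days. The number of all genes that passed moved as well. It was 3882 of 15494 in the main fit and 5833 of 15967 without replicate 2 of 2 days. Without replicate 2 or 3 of 14 days it was 2901 of 15923 and 2751 of 15934. Without replicate 1 or 3 of 2 days it was 4004 of 15812 and 2678 of 15845. Chordc1, at -0.15 and not past the test, was at 0.42 (adjusted p = 0.0345) without replicate 2 of 2 days.

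**Figure D4:**
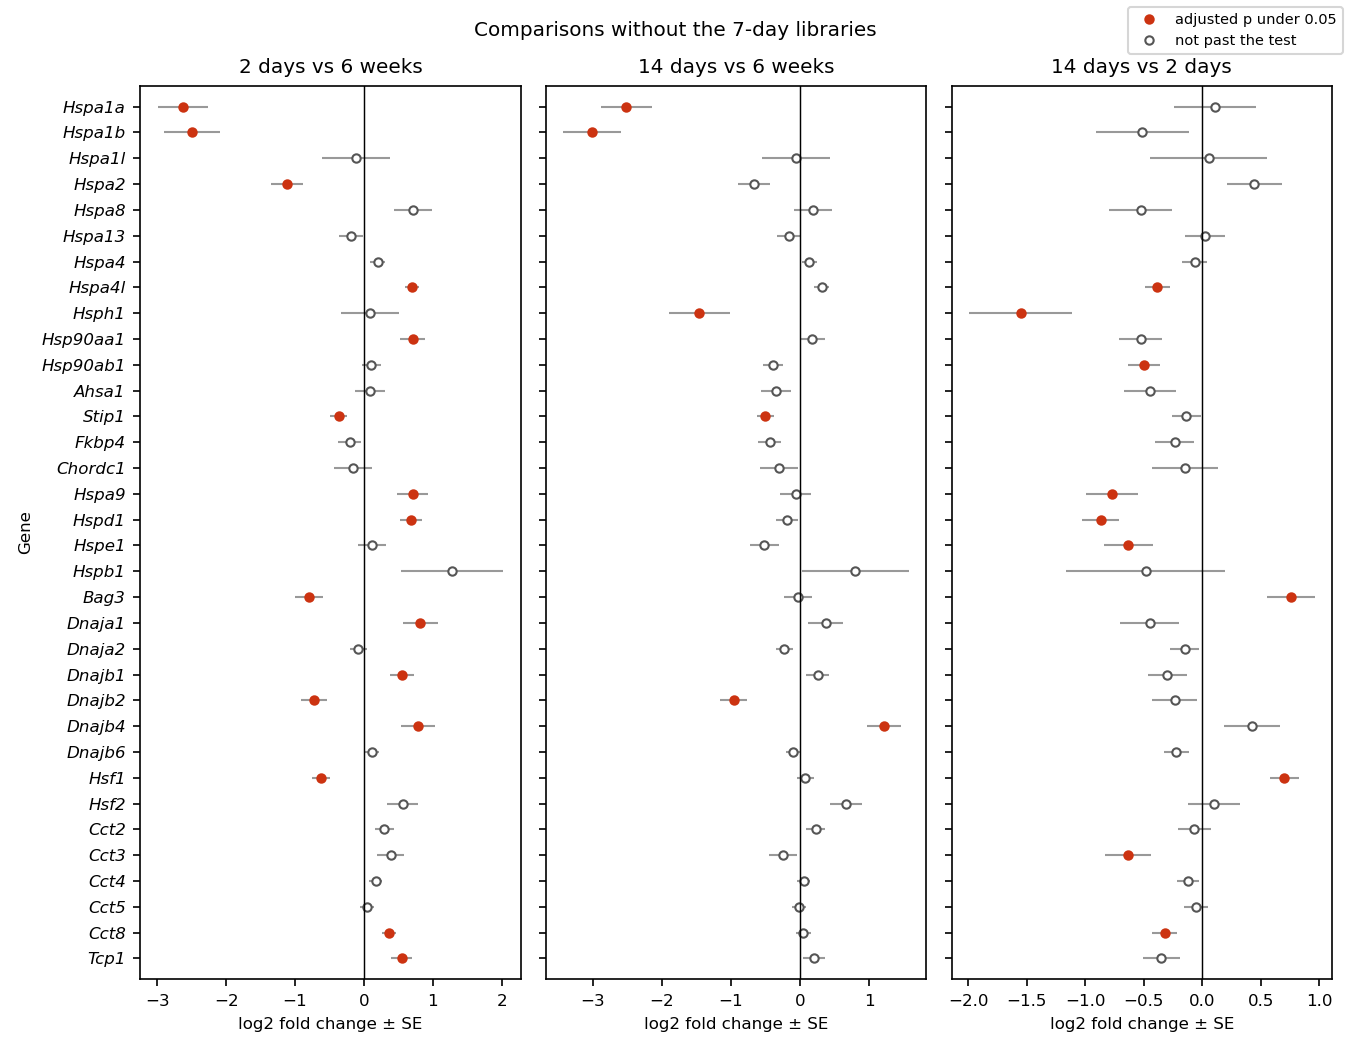
Log2 fold change ± SE of the 34 tested chaperone genes between 2 days and 6 weeks, 14 days and 6 weeks, and 14 days and 2 days, from 1 edgeR fit over 12 libraries. Filled red points passed an adjusted p of 0.05 and open points did not. Hspa1a and Hspa1b lie at -2.50 to -3.01 in both comparisons with 6 weeks and near 0 in the third, while most other points lie within 1 of 0.

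Markers of other cells moved in the same comparisons. At 2 days against 6 weeks, 11 of 11 mast cell and basophil markers were higher, with sums of 2802 to 5407 CPM at 2 days against 22.6 to 39.9 CPM at 6 weeks, where Tpsab1 was at 0 counts. Of 12 erythroid markers 6 were higher and none was lower (488 to 918 against 190.1 to 640.4 CPM), 7 of 8 stromal and endothelial markers were higher and 1 lower (56.0 to 124 against 75.0 to 79.6 CPM), and 10 of 13 monocyte and macrophage markers were lower (852 to 1181 against 4077 to 4347 CPM). At 14 days against 6 weeks, 9 of 13 monocyte markers were lower (1247 to 1601 CPM at 14 days). At 14 days against 2 days, all 11 mast cell markers and 7 of 12 erythroid markers were lower, with sums of 37.9 to 55.8 and 76.0 to 365 CPM at 14 days, and 7 of 8 stromal markers were lower too. T and NK cell markers were lower for 7 of 9 at 2 days and 4 of 9 at 14 days against 6 weeks, with sums of 44.3 to 46.9, 37.6 to 67.8 and 85.4 to 104 CPM. Megakaryocyte markers were higher for 4 of 6 at 2 days against 6 weeks and lower for 5 of 6 at 14 days against 2 days. Immediate early genes were higher for 8 of 18 and lower for 1 at 2 days and again at 14 days against 6 weeks, with sums of 21914 to 34171, 21504 to 26342 and 13296 to 17756 CPM. The part of all these lists in the chaperone results was not tested.

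Some libraries differed from their partners of the same age. In replicate 2 of 2 days 15 of the 34 genes were highest of the 3 libraries, where 40.7% of all genes were highest there. Another 15 were lowest, and the share of all genes lowest there was not counted. The high ones included Hspa1a, Hspa1b, Hsph1, Hspa8, Dnaja1, Chordc1 and Ahsa1, at 24.3, 32.7, 31.2, 1386, 251, 32.5 and 119.6 CPM. Low ones included Hspa9, Cct2, Cct3 and Tcp1, at 30.7, 61.2, 32.5 and 51.2 CPM. The same library had the highest sum of immediate early genes of all 12 (34171 CPM) and the lowest mast cell sum of its age (2802 CPM), and their part in these values was not tested. The median coefficient of variation of the 34 genes was 18.0% at 2 days, 6.90% at 7 days, 12.6% at 14 days and 7.95% at 6 weeks, and for all genes it was 23.4%, 10.2%, 14.3% and 10.7%.

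Ratios within a library do not depend on the scaling between libraries. The inducible pair relative to Hspa8 was lower at 2 days and at 14 days than at 6 weeks in every library, and Hsp90aa1 relative to Hsp90ab1 was higher at both ages than at 6 weeks in every library. Hspe1 relative to Hspd1 was lower at 2 and 14 days than at 6 weeks, and Hsf2 relative to Hsf1 was higher at 2 days. With 3 libraries against 3, an exact permutation test (two-sided) cannot go below p = 0.1, and each of these ratios reached that smallest value. Over the 12 ratio tests made, the smallest Benjamini-Hochberg adjusted p was 0.15, so none could pass. Hspa1b relative to Hspa1a was 0.783 ± 0.0132 at 7 days, 1.24 ± 0.230 at 2 days, 0.870 ± 0.137 at 14 days and 1.19 ± 0.0643 at 6 weeks, and it rests on how reads of near-identical genes were divided.

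**Figure D5:**
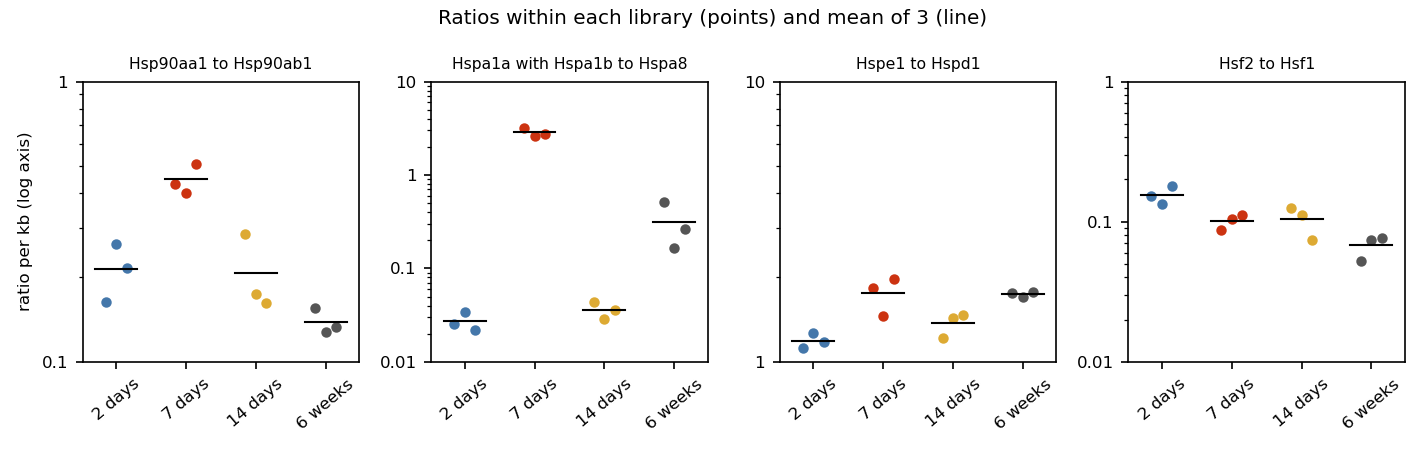
Ratio of 2 genes, or of a pair and a gene, per kilobase in each library on log axes, with a point per library and a line at the mean of 3. Hspa1a with Hspa1b relative to Hspa8 spans the widest range, from 0.0221 at 2 days to 3.21 at 7 days, and Hsp90aa1 relative to Hsp90ab1 stays below 1 in all 12 libraries.

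Further chaperone, cochaperone and folding genes, 42 outside the group and all tested, were counted the same way. The list is mostly cytosolic and mitochondrial, but it also holds Serpinh1, a collagen chaperone of the endoplasmic reticulum. Of these, 13 lay above all 9 other libraries at 7 days (14.7% of all genes) and 5 below (16.1%). The lowest 7-day library exceeded the highest other library by more than 2-fold for 4 of the 42 (1.25% of all genes). It did so by more than 8-fold for 1 (0.0968%). The largest 7-day differences were those of the J-domain gene Dnaja4, at 21.7, 14.3 and 21.9 CPM against 0.233 to 1.40 elsewhere, of Serpinh1 at 8.45 ± 2.24 CPM, and of St13, which assists HSP70, at 173 ± 7.09 CPM. At 2 days against 6 weeks 11 were higher and 7 lower (20.7% and 19.7% of all genes), led by Serpinh1 at 5.03 (SE 0.63, adjusted p = 5.68e-05), Hsf4 at -2.92 (SE 0.79, adjusted p = 0.0109) and Bag2 at 2.55 (SE 0.47, adjusted p = 0.001004). Hsf4 had 112 counts over all libraries. Its 2-day mean of 0.0822 CPM lay within the floor of 3 counts, 0.0766 to 0.0988 CPM in these libraries. Serpinh1 averaged 2.17 CPM at 2 days, so a log2 fold change of 5.03 leaves its 6-week level near the floor. The sizes of both changes are thus uncertain. Leaving out replicate 3 of 6 weeks put Serpinh1 at 5.63, and leaving out replicate 1 of 2 days put Hsf4 at -3.79. Without replicate 3 of 2 days the call for Hsf4 ended (adjusted p = 0.0532, range 0.00221 to 0.0532). At 14 days against 6 weeks 2 were higher and 3 lower (9.68% and 9.26% of all genes), led by Serpinh1 at 2.41 (SE 0.73, adjusted p = 0.0383), Fkbp5, a prolyl isomerase known as a target of glucocorticoids, at 1.60 (SE 0.15, adjusted p = 3.67e-05), and Dnaja4 at -1.37 (SE 0.34, adjusted p = 0.0150). The Serpinh1 call at 14 days ended without 7-day replicate 3 (2.41, adjusted p = 0.0552), 14-day replicate 1 (2.57, adjusted p = 0.0548), 14-day replicate 2 (2.16, adjusted p = 0.121), 14-day replicate 3 (2.46, adjusted p = 0.0699), 6-week replicate 1 (1.86, adjusted p = 0.116), 6-week replicate 2 (2.60, adjusted p = 0.0817) and 6-week replicate 3 (3.01, adjusted p = 0.0596), and that of Dnaja4 without 6-week replicate 2 (-1.15, adjusted p = 0.0581), over ranges of 0.00564 to 0.121 and 0.00141 to 0.0616. At 14 days against 2 days 4 were higher and 7 lower (12.8% and 12.3% of all genes), led by Serpinh1 at -2.63 (SE 0.49, adjusted p = 0.00191), Bag2 at -2.24 (SE 0.46, adjusted p = 0.00342) and Hspa12b at -1.68 (SE 0.37, adjusted p = 0.00521).

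Chaperones of the endoplasmic reticulum, which fold secreted and membrane proteins, were counted as a separate list. Of 15 genes 12 were lower at 2 days than at 6 weeks and none was higher, where 19.7% of all genes were lower and 20.7% higher. At 14 days 8 were lower and 1 higher than at 6 weeks, where 9.26% of all genes were lower and 9.68% higher. The median log2 fold change was -0.82 at 2 days and -0.45 at 14 days. Sdf2l1 at -1.95 (SE 0.22, adjusted p = 3.23e-05), Pdia4 at -1.43 (SE 0.22, adjusted p = 2.46e-04) and Creld2 at -1.21 (SE 0.13, adjusted p = 1.32e-05) led at 2 days. Against 6 weeks at 14 days the leading genes were Sdf2l1 at -1.34 (SE 0.22, adjusted p = 0.00145), Dnajb9 at 1.22 (SE 0.29, adjusted p = 0.0120) and Pdia4 at -0.95 (SE 0.21, adjusted p = 0.00909). At 14 days against 2 days 4 were higher and none lower (12.8% and 12.3% of all genes), led by Hspa5, the HSP70 of this compartment, at 0.57 (SE 0.17, adjusted p = 0.0277), Creld2 at 0.50 (SE 0.12, adjusted p = 0.0117) and Dnajc3 at 0.39 (SE 0.09, adjusted p = 0.00803). The Hspa5 call ended without 2-day replicate 1 (0.50, adjusted p = 0.0569), 2-day replicate 3 (0.56, adjusted p = 0.0713) and 14-day replicate 1 (0.35, adjusted p = 0.0982), range 0.00134 to 0.134. That of Creld2 ended without 14-day replicate 3 (0.39, adjusted p = 0.0617), range 0.00210 to 0.0994. At 7 days 4 of the 15 lay above all 9 other libraries (14.7% of all genes) and 1 below (16.1%), and the largest differences were those of Hsp90b1 (533 ± 17.8 CPM, 1.93 times the next highest age), Canx (1.47 times) and Pdia6 (1.17 times). No gene of this list exceeded the highest other library by 2-fold at 7 days. Of the 34 cytosolic and mitochondrial genes 17 did, and of the 42 further chaperone genes 4 did. The difference from the 34 was not tested, since those were chosen on that contrast.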

How the data were processed

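RNA was extracted with Trizol, polyadenylated RNA was converted to cDNA with random hexamers and amplified by PCR, per the labels' protocols. The authors deposited whole-number counts per gene identifier for 12 libraries, 3 at each of 4 ages. RSEM 1.2.3, DESeq2 and the build mm10 stand in the submitters' processing notes without their roles, and the annotation and strand setting are not given in the sources used here. Of 38887 identifiers, 37570 were matched to a symbol of the GENCODE M21 annotation (GRCm38) and 1317 were not. RSEM estimates how reads of near-identical genes are divided, so Hspa1a and Hspa1b share an uncertain division.

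Genes that passed edgeR's filterByExpr (minimum count 10) entered 1 edgeR 4.0.16 quasi-likelihood fit (R 4.3.3, TMM factors, age as the only term), adjusted over 15494 genes by Benjamini-Hochberg with a threshold of 0.05. DESeq2 1.42.0, limma 3.58.1 (voom), other scalings, no filter, a fit of the compared ages alone, a replicate block and each library left out were alternatives. The fit was tested on simulated data first. Replicates of 1 age differed by more than sampling noise (chi-square over degrees of freedom 9.06 to 167), so none was taken for a duplicate deposit of another, which does not show separate mice. Totals of 34495767 to 38795913 counts limit precision only for genes of few counts, and the floor is 3 counts. Motifs were searched with Python 3.11.15 and Biopython 1.88.

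The members and lists were chosen with earlier results of these data known. Values per library are given for 19 listed genes and for any gene past the threshold with an absolute log2 fold change of 1 or more and a mean of 1 CPM or more, which added Dnajb4 and Hspa2. Of the other lists, the 3 genes of largest change per tested comparison, and the 3 of largest 7-day difference, are named.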

Additional observations from a re-analysis of the deposited data

How the results depend on the processing

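The 7-day differences of genes with values per library all kept their direction, 14 of them moving by more than 1 SD and 994 by less, and the count above all 9 other libraries ran from 28 to 30 over the left-out libraries, with 31 to 33 against 14 days, 29 to 32 against 2 days and 31 to 32 against 6 weeks. Leaving out 1 library gave 4 to 14 higher and 6 to 10 lower genes at 2 days against 6 weeks, 1 to 4 and 3 to 8 at 14 days against 6 weeks, and 1 to 4 and 2 to 8 at 14 days against 2 days. In the same order, those fits passed 4731 to 8170, 1677 to 4685 and 2678 to 5833 of all genes. With library totals alone, 2 genes were higher at 14 days against 6 weeks and 4 lower at 14 days against 2 days, where 2784 and 3668 of all genes passed. DESeq2 found 3 higher at 14 days against 6 weeks, where 3678 of 17033 genes passed. A fit of the compared ages alone, which has fewer libraries, found 5 higher at 2 days against 6 weeks, where it passed 4685 of all genes in place of 6263. At 14 days against 2 days it found 1 higher and 1 lower, where it passed 1952 of all genes in place of 3882. With 2-day replicate 2 and 14-day replicate 1 both left out, chosen after seeing the data, 14 genes were higher and 12 lower at 2 days against 6 weeks, and 8 lower at 14 days against 6 weeks. Of all 15908 genes in that fit, 8997 and 4869 passed in these comparisons, against 6263 and 2934 of 15494 in the main fit. The sign turned for Ahsa1 at 2 days against 6 weeks (-0.31 without 2-day replicate 2, up to 0.23 without other single libraries, and -0.31 without both) and for Hsph1 (-0.72 without both, past the threshold). Without 2-day replicate 2 alone Hsph1 was already at -0.72, short of the threshold (adjusted p = 0.0540). The sign also turned for Chordc1 at 14 days against 2 days (0.42 without 2-day replicate 2, down to -0.34 without other single libraries, and 0.47 without both). Over all single genes and tested comparisons, 2551 values stayed on their side of the threshold (some changed sign without passing in either fit), 133 no longer passed, 68 newly passed, and 5 of those above turned sign and passed the threshold only with the new sign. The cause was not tested.

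The replicate number as a block gave 5 lower genes at 14 days against 2 days. Same-numbered libraries of different ages had correlations of deviations from -0.394 to 0.370 over 18 pairs (median -0.067). Libraries of different numbers had -0.393 to 0.335 over 36 pairs (median 0.034). Of 12 libraries 5 correlated best with their own number. These values show no pairing by number, but with so few libraries they cannot exclude a shared litter, day or batch, which the labels leave unsaid.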

Other observations

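Genes outside the chaperone group also stood far above the other ages at 7 days, and those named here were chosen after their values were seen. Rmrp, Rpph1 and Rn7sk, short noncoding RNAs that are made by RNA polymerase III and carry no poly(A) tail, had 7-day means of 1.75, 7.83 and 8.05 CPM, and their lowest 7-day library was 20.9, 7.59 and 7.005 times the highest other library. Slc5a3, the carrier of myo-inositol, a small solute that cells gather under osmotic stress, averaged 15.7 CPM at 7 days and reached at most 1.72 CPM elsewhere. Dntt, the template-independent DNA polymerase of developing lymphocytes, averaged 4.48 CPM at 7 days and reached at most 0.327 CPM elsewhere. These contrasts were not tested.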
